A study of Mus musculus with 6 samples.

Results

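Iron handling in the liver was followed through 10 genes, Hamp, Hamp2, Trf, Tfrc, Tfr2, Slc40a1, Fth1, Ftl1, Hmox1 and Cp. They were chosen by symbol, with earlier results of these data known. All 10 were found among the 15092 genes of the deposited table, and all 10 passed the filter on low counts that left 13816 genes for testing. Liver RNA came from C57BL/6J mice, with 3 libraries titled CRY1KO (knockout of Cry1, which encodes a repressor protein of the circadian clock, called CRY1 KO here) and 3 titled WT (wild type). Libraries were made from polyadenylated RNA with a stranded Illumina kit. Every title also carries the prefix NC, which is not explained, and the labels used here give no time of day, age, sex, diet or kind of knockout allele. They do not say whether replicates were separate animals, so p-values measure only the spread between these libraries, which may be technical.

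The liver makes hepcidin, the peptide hormone that limits the entry of iron into blood by binding the exporter ferroportin and causing its breakdown. In hepatocytes transcription of the hepcidin gene rises with iron through bone morphogenetic protein (BMP) signals and SMAD factors, and with inflammation through interleukin-6 and STAT3. Inside cells the iron regulatory proteins bind hairpins called iron-responsive elements (IREs) in messenger RNA. Binding before the coding part blocks translation, and binding after the coding part of the transferrin receptor transcript protects it from decay when iron is scarce.

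Mice have a pair of hepcidin genes, and the stretch of promoter that carries the BMP and STAT3 elements shows where they differ, so both are shown. Each sequence is the 250 bases before the RefSeq start of the gene, on the minus strand of build GRCm38.p6, at chr7:30944030-30944279 for Hamp and chr7:30924182-30924431 for Hamp2. Capitals mark GGCGCC, the core of the BMP response element, and TTCNNNGAA, the STAT3 motif.
Hamp: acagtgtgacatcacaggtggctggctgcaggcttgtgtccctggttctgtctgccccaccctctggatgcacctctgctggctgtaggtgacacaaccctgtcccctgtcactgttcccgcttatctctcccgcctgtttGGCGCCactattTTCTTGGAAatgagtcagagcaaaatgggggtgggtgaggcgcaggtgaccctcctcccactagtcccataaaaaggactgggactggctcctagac
Hamp2: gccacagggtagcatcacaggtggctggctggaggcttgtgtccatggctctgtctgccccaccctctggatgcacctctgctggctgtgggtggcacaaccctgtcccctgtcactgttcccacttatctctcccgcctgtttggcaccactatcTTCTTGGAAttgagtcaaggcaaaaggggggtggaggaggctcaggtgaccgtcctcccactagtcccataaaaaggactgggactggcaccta

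The promoters were identical at 227 of 247 aligned bases (91.9%). GGCGCC stood at base 142 of the Hamp sequence, counted from 1 at its first base, and was not found in the Hamp2 sequence, where the substitution G145A fell within the aligned bases. TTCTTGGAA was found in both, 97 bases before the start of Hamp and 94 before that of Hamp2. Over all 32851 RefSeq windows of the same kind (250 bases before to 50 after a start), searched on both strands, 11.9% held GGCGCC and 8.30% held TTCNNNGAA. A window was given for 7 of the 10 genes, in 12 windows in all, and of those GGCGCC was also in 1 window of Tfrc. The clock E-box CACGTG, present in 7.15% of all windows, was in 0 of the 12, as were the D-box TTATGTAA (0.938% of all windows) and the antioxidant response element TGACNNNGC (12.4% of all windows). These motifs do not overlap each other in the printed sequences, and a match describes letters only.

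The transcripts of 4 of the genes carry a hairpin of the IRE form, which is why the iron content of a cell can act on them after transcription. The search asked for a bulged C, 5 stem bases, the loop CAGTGN and 5 bases that pair with the stem (G with U allowed), on the sense strand of the GENCODE M21 transcripts (GRCm38). Capitals mark the bulged C and the CAGTGN loop. The Fth1 hairpin lies on chromosome 19 at bases 87 to 116 of the first-numbered transcript, the Ftl1 hairpin on chromosome 7 at bases 78 to 107 of its own, and the Slc40a1 hairpin on chromosome 1 at bases 90 to 119, all before the coding part. The Tfrc transcript, from chromosome 16, had 4 such hairpins, all after the coding part, of which the first, at bases 3315 to 3344, is shown.
Fth1: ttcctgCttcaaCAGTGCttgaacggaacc
Ftl1: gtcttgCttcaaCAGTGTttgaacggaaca
Slc40a1: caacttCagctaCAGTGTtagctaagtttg
Tfrc: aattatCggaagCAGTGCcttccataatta

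Of 58797 protein-coding transcripts in that release 562 (0.956%) held such a hairpin. It was not found in the first-numbered transcripts of Hamp, Hamp2, Trf, Tfr2, Hmox1 or Cp. The loops of Fth1 and Ftl1 sit in closely similar stems, while those of Slc40a1 and Tfrc differ in the stem. The loop letters CAGTG are shared because the search asked for them.

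None of the 10 iron handling genes differed between libraries labelled CRY1 KO and WT libraries past the threshold. With edgeR's quasi-likelihood test 0 of 10 had an adjusted p under 0.05, where 1.70% of all tested genes did, and 0 of 10 had an unadjusted p under 0.05, where 20.7% of all tested genes did. DESeq2 and limma-voom each called 0 of the 10 as well. Hamp varied 5.01-fold between WT libraries, and the log2 fold changes lay between -0.92 for Tfrc and 0.14 for Slc40a1. Log2 fold changes were negative for 8 genes and positive for 2, with a median of -0.13, beside a median of -0.02 over all tested genes.

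Library totals ran from 79708703 to 87480152 estimated counts in libraries labelled CRY1 KO and from 83941470 to 91316332 in WT. Cry1 itself stood at 6.19 ± 0.88 CPM (count scaled to library size) in libraries labelled CRY1 KO and 6.31 ± 1.32 CPM in WT (SD, n = 3 each), so its level does not check the labels. The value covers the whole gene and cannot show whether part of it is deleted. WT 1 stood apart, with 0.267% of its counts in haemoglobin genes, where the other 5 libraries had between 0.0435% and 0.0917%. It also had the largest share in major urinary protein (Mup) genes, 18.95%, where WT 2 and WT 3 had 16.1% and 9.30%. CRY1 KO 1, 2 and 3 had 13.4%, 15.5% and 7.52%. Genes of the mitochondrial genome took 5.82%, 6.82% and 8.62% in WT 1, 2 and 3. The shares were 8.47%, 9.45% and 9.23% in CRY1 KO 1, 2 and 3. Library scaling factors ran from 0.942 in WT 1 to 1.083 in WT 3, and from 0.930 to 1.069 in libraries labelled CRY1 KO. The labels name hepatocytes as the cell type. Hepatocyte markers summed to between 88674 and 97364 CPM in libraries labelled CRY1 KO and between 84015 and 88701 CPM in WT, and markers of Kupffer cells, endothelial cells and red blood cells were also measured in every library. In such bulk samples, fewer cells of a type and less RNA per cell cannot be told apart.

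Hamp, which encodes hepcidin, was measured at 256, 334 and 260.3 CPM in CRY1 KO 1, 2 and 3, against 121, 411 and 606 CPM in WT 1, 2 and 3. The libraries labelled CRY1 KO lay close together, between the lowest WT library and the other WT libraries. The mean was 283 ± 44 CPM in libraries labelled CRY1 KO and 379 ± 244 CPM in WT (SD, n = 3 each), a log2 fold change of -0.42 (SE 0.59, edgeR adjusted p = 0.729). The 95% limits of this value were -1.94 and 1.10, so these libraries do not exclude a change of either direction. The value depended on single WT libraries. Without WT 1 the log2 fold change of Hamp was -0.84 (adjusted p = 0.0513 by edgeR), and without WT 3 it was 0.09 (adjusted p = 0.943).

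Hamp2 encodes a second peptide that in transgenic mice did not act on iron as hepcidin does. It had 6.64, 4.095 and 10.6 CPM in libraries labelled CRY1 KO, against 2.70, 24.2 and 4.54 CPM in WT 1, 2 and 3. WT 2 alone was high, and the groups overlapped. Its log2 fold change was -0.55 (SE 0.95, edgeR adjusted p = 0.780), and without WT 2 it became 0.98 (adjusted p = 0.400). Per kilobase of transcript, Hamp averaged 691 CPM in libraries labelled CRY1 KO and 925 CPM in WT, and Hamp2 16.95 CPM in libraries labelled CRY1 KO and 24.9 CPM in WT. Hamp2 made up 1.21% to 3.92% of the sum of both genes in libraries labelled CRY1 KO and 0.742% to 5.56% in WT. The transcripts of the pair are alike, so how the authors' tools divided shared reads between them is uncertain. Added to 1 row, they had a log2 fold change of -0.42 (adjusted p = 0.724 by edgeR). Without WT 1 this summed row was lower in libraries labelled CRY1 KO, at -0.85 (adjusted p = 0.0337), and without WT 3 it was at 0.06 (adjusted p = 0.968).

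**Figure D1:**
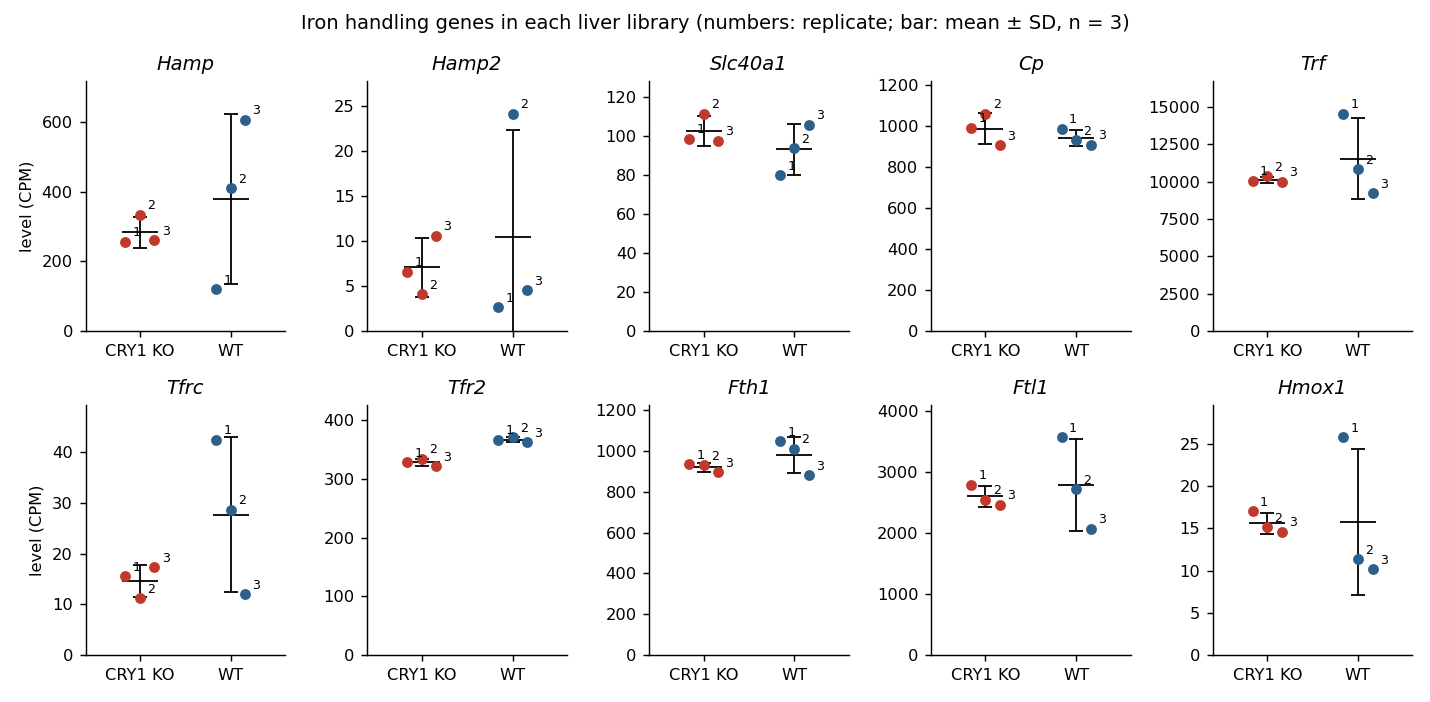
Level of each of the 10 genes in every library, in CPM on linear axes from 0, with CRY1 KO left of WT. Points carry the replicate number, and bars are the mean ± SD of 3 libraries (the lower end for Hamp2 in WT lies below 0 and is not drawn). WT libraries spread more widely than libraries labelled CRY1 KO for Hamp, Tfrc and Hmox1, and Tfr2 is the gene whose groups do not overlap.

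Slc40a1 encodes ferroportin, the exporter that hepcidin acts on, which hepatocytes, Kupffer cells and gut cells use to release iron. It was measured at 98.7, 111 and 97.7 CPM in libraries labelled CRY1 KO, against 79.9, 93.6 and 106 CPM in WT 1, 2 and 3. The lowest value was in WT 1, and WT 3 lay within the range of the libraries labelled CRY1 KO. The log2 fold change was 0.14 (SE 0.12, edgeR adjusted p = 0.529), with 95% limits of -0.13 and 0.41. Cp encodes ceruloplasmin, the copper ferroxidase of plasma that oxidises iron as it leaves cells. It stood at 992, 1061 and 908 CPM in libraries labelled CRY1 KO, against 987, 930.4 and 909 CPM in WT, with a log2 fold change of 0.07 (SE 0.10, edgeR adjusted p = 0.732). The 95% limits for Cp were -0.16 and 0.29.

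Trf encodes transferrin, the plasma carrier of iron, and had the 7th highest mean level of all genes of the table, not corrected for length. It was measured at 10067, 10360.1 and 9999.5 CPM in libraries labelled CRY1 KO, against 14558, 10851 and 9239 CPM in WT 1, 2 and 3. Libraries labelled CRY1 KO differed by 1.04-fold at most, and WT libraries by 1.58-fold, with WT 1 the highest of all. The log2 fold change was -0.19 (SE 0.17, edgeR adjusted p = 0.553), and 0.01 without WT 1.

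Tfrc encodes transferrin receptor 1, which takes up iron-loaded transferrin, and its transcript is the one whose IREs protect it when iron is low. It was measured at 15.5, 11.1 and 17.3 CPM in libraries labelled CRY1 KO, against 42.5, 28.7 and 12.03 CPM in WT 1, 2 and 3. WT 1 and WT 2 were above every library labelled CRY1 KO, and WT 3 lay within their range. The mean was 14.7 ± 3.2 CPM in libraries labelled CRY1 KO and 27.7 ± 15.2 CPM in WT (SD, n = 3 each). The log2 fold change of -0.92 (SE 0.48, edgeR adjusted p = 0.342) was the largest in size among the 10 genes, with 95% limits of -2.12 and 0.28. Tfrc passed the threshold when WT 3 was left out (log2 fold change -1.28, adjusted p = 0.0424), and was at -0.47 without WT 1.

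Tfr2 encodes transferrin receptor 2, the liver's sensor of iron-loaded transferrin, which acts upstream of hepcidin. It was measured at 329, 335 and 322 CPM in libraries labelled CRY1 KO, against 367, 371 and 363 CPM in WT. Every library labelled CRY1 KO was below every WT library, and neither group varied by more than 1.04-fold. The log2 fold change was -0.16 (SE 0.08), and it did not pass the edgeR test over all genes (adjusted p = 0.293). Tfr2 was the 1 of 10 genes with groups that did not overlap, where 27.3% of all tested genes had such groups. Over the libraries left out its log2 fold change stayed between -0.17 and -0.14. Per kilobase, Tfr2 averaged 112 CPM in libraries labelled CRY1 KO and 125 CPM in WT, and Tfrc 2.999 CPM in libraries labelled CRY1 KO and 5.67 CPM in WT. The ratio of Tfr2 to Tfrc CPM was 21.2, 30.1 and 18.6 in libraries labelled CRY1 KO, and 8.64, 12.9 and 30.2 in WT 1, 2 and 3.

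**Figure D2:**
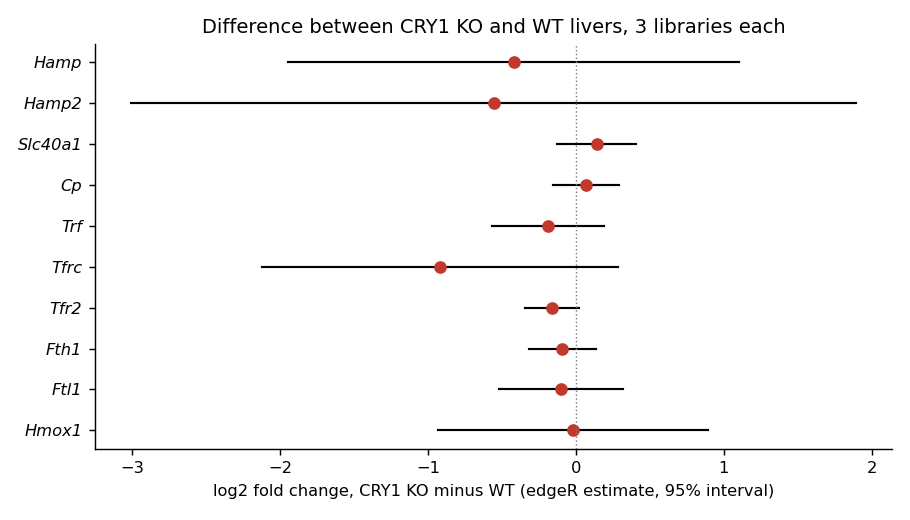
Log2 fold change of each gene, CRY1 KO minus WT, with 3 libraries per group. Points are edgeR estimates and lines their 95% intervals. All 10 intervals include 0, and those of Hamp, Hamp2 and Tfrc are the widest.

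Ferritin, the cage that stores iron in cells, is built from heavy and light chains encoded by Fth1 and Ftl1. Fth1 was measured at 934, 929 and 895 CPM in libraries labelled CRY1 KO, against 1047, 1011 and 881 CPM in WT 1, 2 and 3, with a log2 fold change of -0.09 (SE 0.10, edgeR adjusted p = 0.637). Ftl1 was measured at 2794, 2543 and 2464 CPM in libraries labelled CRY1 KO, against 3569, 2718 and 2072 CPM in WT 1, 2 and 3, with a log2 fold change of -0.10 (SE 0.18, edgeR adjusted p = 0.793). For both chains WT 1 was the highest and WT 3 the lowest of the 6 libraries. Ftl1 turned to 0.12 without WT 1. The ratio of Ftl1 to Fth1 CPM was 2.99, 2.74 and 2.75 in libraries labelled CRY1 KO, and 3.41, 2.69 and 2.35 in WT 1, 2 and 3, so it varied more among WT libraries. Per kilobase, Ftl1 averaged 2686 CPM in libraries labelled CRY1 KO and 2878 CPM in WT, and Fth1 989 CPM in libraries labelled CRY1 KO and 1055 CPM in WT. The table also lists the processed copy Ftl1-ps1, whose CPM was 2.99% to 4.13% of that of Ftl1 in libraries labelled CRY1 KO and 2.72% to 2.97% in WT, and reads of Ftl1 may be divided with it.

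Hmox1 encodes haem oxygenase 1, which frees iron from haem and is induced by haem and by the factor NRF2. It was measured at 17.03, 15.1 and 14.6 CPM in libraries labelled CRY1 KO, against 25.8, 11.4 and 10.2 CPM in WT 1, 2 and 3. WT 1 was above and the other WT libraries below every library labelled CRY1 KO. The means, 15.6 ± 1.3 CPM in libraries labelled CRY1 KO and 15.8 ± 8.7 CPM in WT (SD, n = 3 each), gave a log2 fold change of -0.02 (SE 0.37, edgeR adjusted p = 0.988). Without WT 1 it was 0.53 (adjusted p = 0.0567 by edgeR). Markers of Kupffer cells, macrophages that clear red cells and recycle their iron, summed to 239, 238 and 242 CPM in libraries labelled CRY1 KO, against 663, 415 and 259 CPM in WT 1, 2 and 3. All 12 tested Kupffer markers had negative log2 fold changes, 8 of them without overlap of the groups, where 12.7% of all tested genes were lower without overlap, and 0 past the edgeR threshold, and 0 of the 12 were at 0 throughout. Red blood cell markers summed to 677, 582 and 736 CPM in libraries labelled CRY1 KO, against 2985, 1025 and 655 CPM in WT 1, 2 and 3. The order of the WT libraries for both marker sums, highest in WT 1 and lowest in WT 3, was also that of Trf, Tfrc, Ftl1, Fth1 and Hmox1. It was also that of the neutrophil marker sum (8.02, 4.41 and 2.90 CPM) and of the acute phase sum (30287, 25329 and 19903 CPM). The Mup share of counts ran the same way, so the order was not particular to Kupffer and red blood cell markers. Markers of B and plasma cells summed to between 3.33 and 4.53 CPM in libraries labelled CRY1 KO and between 8.50 and 13.7 CPM in WT, and Jchain, the immunoglobulin joining chain gene, was the 1 cell marker past the edgeR threshold (log2 fold change -2.45, adjusted p = 0.0194). Neutrophil markers, 5 of 5 negative, summed to between 1.63 and 2.32 CPM in libraries labelled CRY1 KO and between 2.90 and 8.02 CPM in WT. T and NK cell markers, 6 of 7 negative, summed to between 1.25 and 1.56 CPM in libraries labelled CRY1 KO and between 1.84 and 2.99 CPM in WT. Endothelial markers went the other way, with 7 of 9 positive and 2 negative. They summed to between 261 and 318 CPM in libraries labelled CRY1 KO and between 255 and 275 CPM in WT. Higher values without overlap were found for 4 of the 9, beside 14.6% of all tested genes. Stellate cell markers were negative for 6 of 8 and bile duct markers for 3 of 6. The part of these cells in the levels was not tested.

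The coefficient of variation was larger in WT than in libraries labelled CRY1 KO for 8 of the 10 genes, beside 63.8% of all tested genes, and Tfr2 and Cp were the exceptions. WT 1 held the highest or lowest value of the 6 libraries for 8 of the 10 genes, beside 38.7% of all tested genes. It was highest for 5, Trf, Tfrc, Fth1, Ftl1 and Hmox1, and lowest for 3, Hamp, Hamp2 and Slc40a1. Hamp and Slc40a1 thus ran opposite to Tfrc among the WT libraries, with the order WT 1, WT 2, WT 3 from low to high for Hamp and Slc40a1 and from high to low for Tfrc. Whether the groups differ in spread was not tested.

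Per kilobase of transcript the mean levels had the same order in both groups, from Trf through Ftl1, Fth1, Hamp, Cp, Tfr2, Slc40a1, Hamp2 and Hmox1 to Tfrc. Trf stood at 3945 CPM per kilobase in libraries labelled CRY1 KO and 4492 in WT, and Cp at 241 in libraries labelled CRY1 KO and 230.2 in WT. In libraries labelled CRY1 KO only Hamp2 and Hmox1 overlapped among neighbours in this order. In WT, Trf and Ftl1, Fth1 and Hamp, Slc40a1 and Hamp2, Hamp2 and Hmox1, and Hmox1 and Tfrc overlapped, so their order there is not firm.

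**Figure D3:**
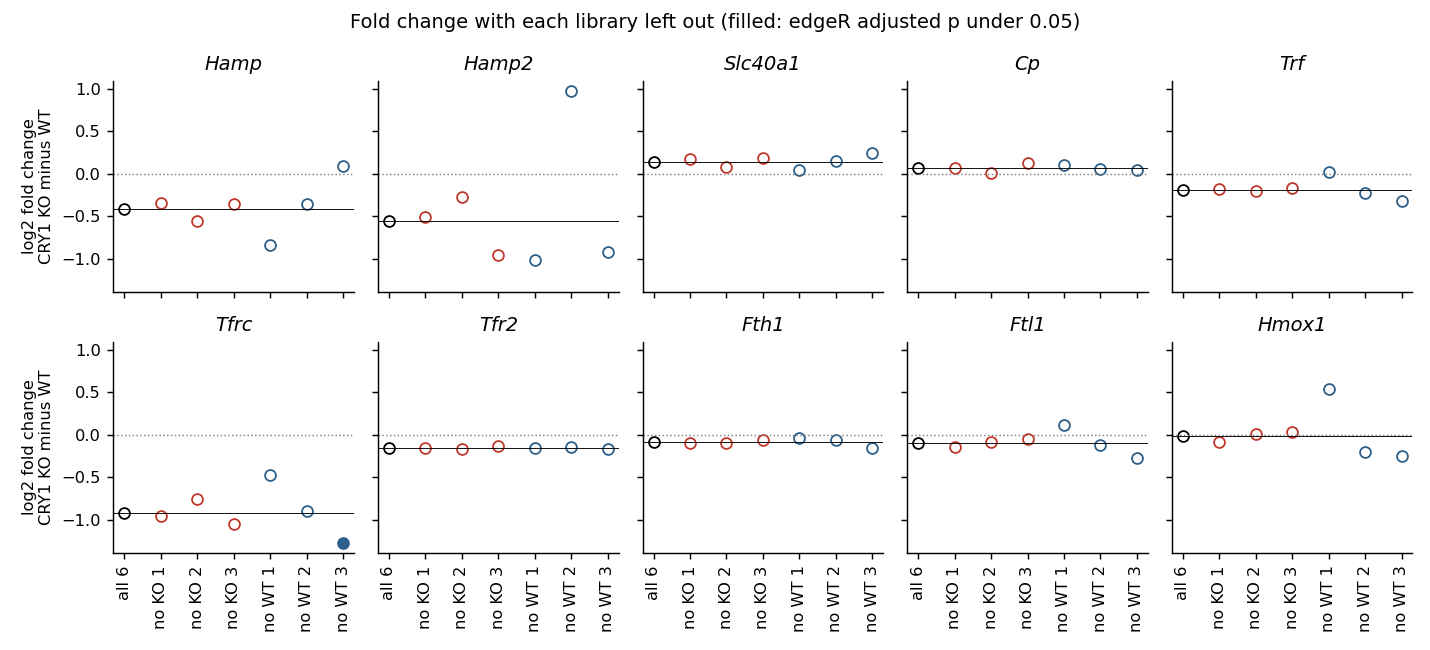
Log2 fold change, CRY1 KO minus WT, of each gene with all 6 libraries (black) and with 1 library left out (red: a CRY1 KO library, blue: a WT library). The thin line marks the value with all libraries, and a filled point has an edgeR adjusted p under 0.05. The only filled point is Tfrc without WT 3 (-1.28), and Hamp spans -0.84 without WT 1 to 0.09 without WT 3.

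Genes that control hepcidin had log2 fold changes of either sign. Of 13 tested genes of the BMP, SMAD and HFE input, 0 passed the edgeR test. An unadjusted p under 0.05 was found for 3, beside 20.7% of all tested genes. Log2 fold changes were positive for 6 and negative for 7, with a median of -0.0049. Hjv, which encodes hemojuvelin, the BMP co-receptor needed for hepcidin expression, stood at 36.1 ± 8.8 CPM in libraries labelled CRY1 KO and 56.9 ± 1.8 CPM in WT (SD, n = 3 each). Its groups did not overlap, with a log2 fold change of -0.65 (SE 0.16, edgeR adjusted p = 0.0802). DESeq2 called Hjv (adjusted p = 0.00588). The BMP receptor genes Bmpr2 (log2 fold change 0.32, edgeR adjusted p = 0.152) and Acvr1 (-0.35, adjusted p = 0.160) did not pass either test, and Bmpr2 passed the edgeR test without WT 3 (adjusted p = 0.0399). Tmprss6, the protease gene that restrains hepcidin by cutting hemojuvelin, had a log2 fold change of -0.0049, and Hfe, the haemochromatosis gene, of -0.03.

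Transcripts induced by BMP and SMAD signals did not move one way. edgeR called 0 of 6 such genes, and 3 had an unadjusted p under 0.05, beside 20.7% of all tested genes. Log2 fold changes were positive for 3 and negative for 3. Id3, which encodes an inhibitor of differentiation induced by BMPs, was measured at 13.6, 19.9 and 19.0 CPM in libraries labelled CRY1 KO, against 17.2, 74.4 and 80.4 CPM in WT 1, 2 and 3 (log2 fold change -1.71, SE 0.62, edgeR adjusted p = 0.221). Like Hamp, it was high in WT 2 and WT 3. Without WT 1 Id3, and Id2 with it, passed (-2.15, adjusted p = 0.00103 by edgeR). Its relative Id2 was measured at 94.6, 99.4 and 71.7 CPM in libraries labelled CRY1 KO, against 64.3, 186 and 216 CPM in WT 1, 2 and 3, the same order among WT libraries as Hamp. The SMAD inhibitor gene Smad7 went otherwise, with 8.93, 10.6 and 11.6 CPM in libraries labelled CRY1 KO, against 6.16, 5.92 and 11.4 CPM in WT. Its log2 fold change was 0.40 (edgeR adjusted p = 0.411), and it passed the edgeR test without WT 3. Atoh8, a transcription factor gene induced with hepcidin, had a log2 fold change of 0.62 with groups that did not overlap (edgeR adjusted p = 0.0736, DESeq2 adjusted p = 0.00793). It passed the edgeR test without WT 3 (adjusted p = 0.0151). Smad6, another inhibitor, had a log2 fold change of -0.73 (adjusted p = 0.179 by edgeR). Id2 and Smad7 were named here after their values were seen.

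Acute phase genes, many of which inflammation induces together with hepcidin, were among the WT libraries highest in WT 1 for 16 of 20 and lowest in WT 3 for 17 of 20, where Hamp was lowest in WT 1 and highest in WT 3. Socs3 was the 1 of 20 that was lowest in WT 1. The list also holds receptor and signalling genes, among them Il6ra, Il1r1 and Socs3. How many of all tested genes have these orders was not counted. The serum amyloid gene Saa1 was measured at 23.7, 42.0 and 24.3 CPM in libraries labelled CRY1 KO, against 989, 128 and 13.7 CPM in WT 1, 2 and 3. WT 1 thus had the highest Saa1 and the lowest Hamp of all libraries, and among WT libraries the orders were opposite. Among the 20 acute phase genes tested, edgeR called 0 at an adjusted p under 0.05. An unadjusted p under 0.05 was found for 8, beside 20.7% of all tested genes, and the median log2 fold change was -0.46. Those with the smallest p were Itih3 (-0.57, edgeR adjusted p = 0.0781), which encodes a hyaluronan-binding plasma protein, Socs3 (-1.02, adjusted p = 0.0795), which encodes an inhibitor of STAT3 signalling, and the receptor gene Il1r1 (0.76, adjusted p = 0.0862). DESeq2 called Itih3 (adjusted p = 0.00527), Socs3 (adjusted p = 0.00347) and Il1r1 (adjusted p = 0.00370), and also Hp, Il6ra, Itih4, Saa2 and Saa3 of the list. Hp, Itih4, Saa2 and Saa3 had negative log2 fold changes. Il6ra, the interleukin-6 receptor gene, was higher, with a log2 fold change of 1.97 (edgeR adjusted p = 0.0946). It had 98.1, 81.7 and 119 CPM in libraries labelled CRY1 KO, against 42.3, 14.9 and 19.1 CPM in WT. Without WT 1 Il6ra passed the edgeR test. The edgeR test was also passed without WT 1 by Socs3 (adjusted p = 0.0211), Il1r1 (adjusted p = 0.0188) and Cebpb. Without WT 3 it was passed by Itih3 (adjusted p = 0.0138), Il1r1 (adjusted p = 0.0274), Apcs, Hp, Hpx, Itih4 and Saa3. Of all genes 4.04% passed without WT 1 and 6.04% without WT 3. Saa1, Apcs and Cebpb were named after their values were seen.

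**Figure D4:**
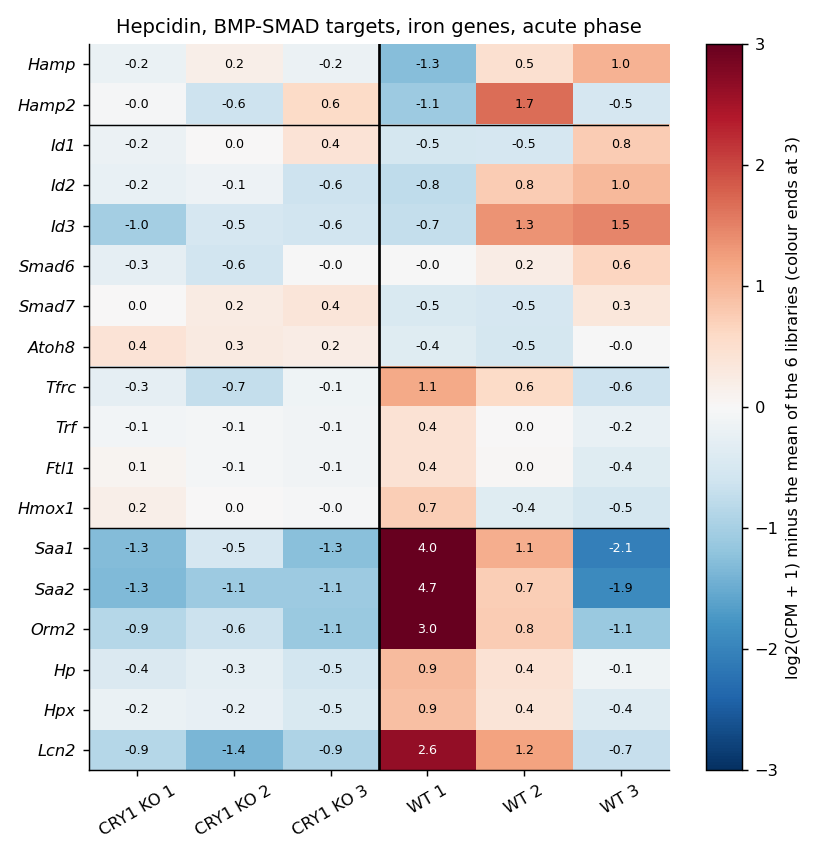
Log2(CPM + 1) of 18 genes in each library, as the deviation from the gene's mean over the 6 libraries (red high, blue low, colours end at 3), with CRY1 KO left of WT. From the top the blocks are the hepcidin genes, BMP and SMAD targets, iron handling genes and acute phase or haem-binding genes. WT 1 is low for Hamp and Id2 and high for Tfrc, Hmox1 and the genes of the last block, while WT 3 is high for Hamp, Id2 and Id3. The last block is a selection that also holds Lcn2 of the transport list. Not every acute phase gene left out is high in WT 1, as Socs3 is lowest there among WT libraries.

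In the cell's own control of iron, 0 of 6 genes of iron regulatory proteins and ferritin turnover passed the edgeR test. Of all tested genes 1.70% passed it. Ncoa4, which encodes the receptor that carries ferritin to lysosomes for breakdown, stood at 95.9 ± 6.3 CPM in libraries labelled CRY1 KO and 69.6 ± 8.8 CPM in WT (SD, n = 3 each), without overlap of the groups (log2 fold change 0.46, SE 0.11, edgeR adjusted p = 0.0724). Pcbp2, an iron chaperone gene, had a log2 fold change of 0.34 (adjusted p = 0.0995 by edgeR) and its relative Pcbp1 of -0.20 (adjusted p = 0.305). Ncoa4 passed the edgeR test without WT 1 (adjusted p = 0.0366). Pcbp2 passed it without WT 3 (adjusted p = 0.0442). DESeq2 called Ncoa4 (adjusted p = 0.0103) and Pcbp2 (adjusted p = 0.0267). The iron regulatory protein genes Aco1 (0.12) and Ireb2 (-0.03) did not pass.

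Of 12 tested genes of iron uptake and transport 0 passed the edgeR test, beside 1.70% of all tested genes. Slc11a2, which encodes the iron importer DMT1, came closest, at 22.0 ± 2.1 CPM in libraries labelled CRY1 KO and 30.6 ± 1.1 CPM in WT (SD, n = 3 each; log2 fold change -0.47, SE 0.10, edgeR adjusted p = 0.0515). Its groups did not overlap, and DESeq2 called it (adjusted p = 0.00254), as did edgeR without WT 1 (adjusted p = 0.0459) or WT 3 (adjusted p = 0.0476). Lcn2, which encodes a binder of bacterial iron carriers that also rises in inflammation, was measured at 2.29, 1.32 and 2.18 CPM in libraries labelled CRY1 KO, against 36.4, 12.9 and 2.70 CPM in WT 1, 2 and 3 (edgeR adjusted p = 0.185). Heph, the membrane-bound relative of Cp, had a log2 fold change of 0.89 (adjusted p = 0.215 by edgeR). Without WT 3 both passed the edgeR test, Heph at a log2 fold change of 1.39 (adjusted p = 0.0416) and Lcn2 at -3.67 (adjusted p = 0.0442).

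In haem synthesis 0 of 10 genes passed, with 6 at an unadjusted p under 0.05 by edgeR, beside 20.7% of all tested genes. The median log2 fold change was -0.18. Alad, the second enzyme of the pathway, had a log2 fold change of -0.33 (SE 0.08, edgeR adjusted p = 0.0729), Abcb10, a mitochondrial transporter gene, of -0.34 (adjusted p = 0.0939), and Cpox, a later enzyme, of 0.29 (adjusted p = 0.132). DESeq2 called Alad (adjusted p = 0.00900) and Abcb10 (adjusted p = 0.0363). Of 11 genes that handle haem and haemoglobin 0 passed the edgeR test, beside 1.70% of all tested genes. Log2 fold changes were negative for 10 of them. Hp and Hpx, which encode the plasma binders of haemoglobin and haem and belong to the acute phase list as well, had log2 fold changes of -0.91 (adjusted p = 0.107) and -0.69 (adjusted p = 0.249). Blvrb, a biliverdin reductase gene, had -0.35 (adjusted p = 0.164). Without WT 3, Hp (adjusted p = 0.0149) and Hpx (adjusted p = 0.0235) passed the edgeR test, and DESeq2 called Hp (adjusted p = 0.00231). Hp and Hpx were highest in WT 1 and, among WT libraries, lowest in WT 3, as were the red blood cell markers, whose part in this was not tested. Of 18 genes of iron-sulphur cluster assembly 0 passed the edgeR test. An unadjusted p under 0.05 was found for 1, beside 20.7% of all tested genes, and the median log2 fold change was 0.01. Cisd1, which encodes an iron-sulphur protein of the outer mitochondrial membrane, had a log2 fold change of 0.30 (adjusted p = 0.118), and Nfu1, which encodes a cluster carrier, of -0.23 (adjusted p = 0.250).

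Among 10 tested genes of the NRF2 pathway 1 rose and 9 did not pass. By edgeR 1.06% of all tested genes were higher and 0.644% lower. The gene that rose was Nfe2l2, which encodes NRF2, an activator of Hmox1, Fth1, Ftl1 and Slc40a1. It was measured at 77.6, 70.1 and 63.5 CPM in libraries labelled CRY1 KO, against 45.7, 40.9 and 49.0 CPM in WT (log2 fold change 0.64, SE 0.11, edgeR adjusted p = 0.0347). All libraries labelled CRY1 KO were above all WT libraries. The call was lost without WT 2 (adjusted p = 0.145) and without CRY1 KO 1, 2 or 3 (adjusted p = 0.101, 0.145 and 0.0925), with log2 fold changes between 0.57 and 0.71. Without scaling between libraries its adjusted p was 0.0631, with a log2 fold change of 0.61. Its inhibitor gene Keap1 (-0.23, edgeR adjusted p = 0.203) and Bach1 (0.07, adjusted p = 0.766), which encodes a repressor of Hmox1, did not pass.

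Over all the lists of iron handling, NRF2 and acute phase genes, with each gene counted once, 104 were tested beside the 10. Of these 1 was higher (Nfe2l2) and 0 were lower past the edgeR threshold, where 1.06% of all tested genes were higher and 0.644% lower. DESeq2 called 17, where it called 8.90% of all genes. These were Hjv, Atoh8, Ncoa4, Pcbp2, Slc11a2, Lcn2, Alad, Abcb10, Hp and Nfe2l2, and the acute phase genes Il1r1, Il6ra, Itih3, Itih4, Saa2, Saa3 and Socs3. Groups did not overlap with higher values for 13 of the 104, beside 14.6% of all tested genes, and with lower values for 20, beside 12.7%. The edgeR count was 9 without WT 1, where 4.04% of all genes were called, 15 without WT 3, where 6.04% were called, and 0 without WT 2 or without CRY1 KO 1, 2 or 3.

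**Figure D5:**
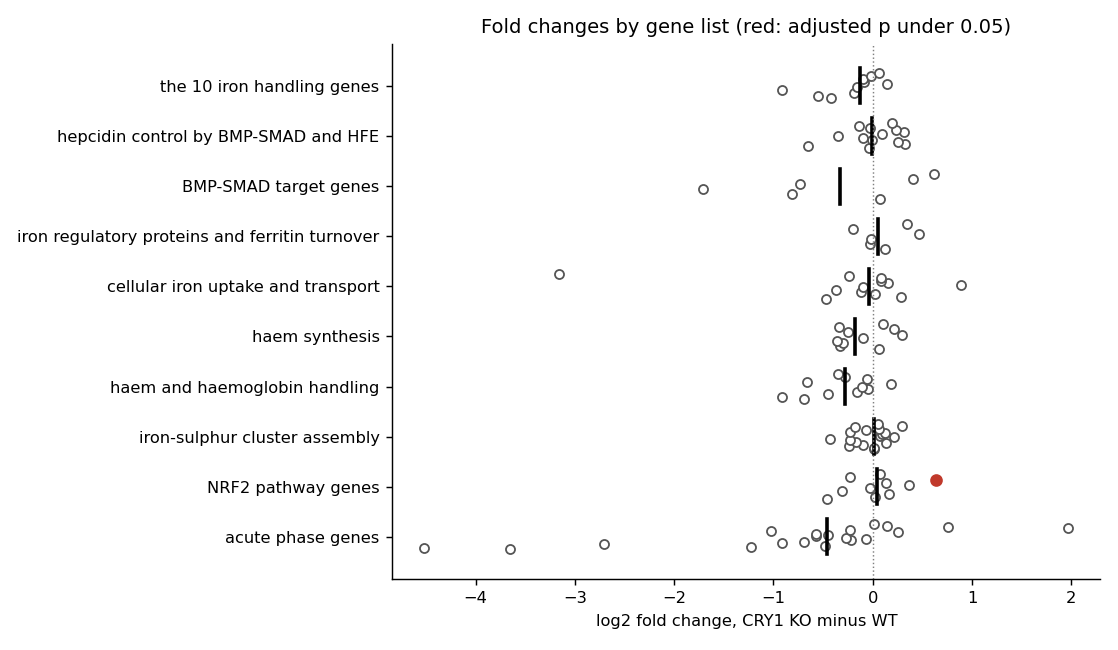
Log2 fold change, CRY1 KO minus WT, of every tested gene by list, with the list's median as a bar. The filled red point, Nfe2l2 (0.64), is the only gene past an edgeR adjusted p of 0.05, and the 10 iron handling genes lie between -0.92 and 0.14.

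The genes whose pattern over the 6 libraries was most like that of Hamp, by Pearson's r of log2(CPM + 1), were Xrcc2 (r = 0.993), Pcsk4 (r = 0.978) and F3 (r = 0.977). For Tfr2, the iron handling gene with the smallest p, they were Rpl10-ps3 (r = 0.995), Bcl7c (r = 0.995) and Tuba4a (r = 0.994). These are the highest of all tested genes over 6 points, so they are a description only. Bcl7c (log2 fold change -0.84, adjusted p = 0.0277) and Tuba4a (-0.82, adjusted p = 0.00662) were lower in libraries labelled CRY1 KO by edgeR.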

How the data were processed

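Polyadenylated RNA of 6 mouse liver libraries, 3 titled CRY1KO and 3 titled WT, was compared. The deposited values were whole numbers and were taken as estimated counts made by the authors. The value 3 was commoner than 1, 2 or 4 in all 6 libraries, so 1 unit is not 1 fragment. StringTie 2.1.7, HISAT2 2.2.1, limma 3.42.2 and Trim Galore 0.6.7 are named, with build GRCm39, per the submitters' processing notes. Annotation, settings and whether counting used strand were not given in the sources used here, so overlapping genes on opposite strands are uncertain. The table's smallest row sum was 11.

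Genes were filtered with filterByExpr (minimum count 10, minimum total 15), libraries were scaled by TMM, and groups were compared with the quasi-likelihood test of edgeR 4.0.16 (robust, Benjamini-Hochberg over 13816 genes, threshold 0.05). The biological coefficient of variation was 0.211. Intervals are the estimate and its standard error with edgeR's degrees of freedom. The procedure was also run on counts simulated from the fitted spread of each gene, with no outlying library. That run cannot show how single libraries act on the results. Levels are CPM on the scaled library, divided by the length of the first-numbered GENCODE M21 transcript where given per kilobase. The alternatives were DESeq2 1.42.0, limma-voom (limma 3.58.1), other scalings, no filter, Hamp and Hamp2 summed, the replicate block and each library left out.

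The genes and lists were chosen with earlier results of these data known. From each list the called genes, or up to 3 with the smallest p, are named, and Tmprss6, Hfe, Aco1, Ireb2, Keap1, Bach1, Id2, Smad7 and Saa1 were added after their values were seen. A gene that this rule names is not reported here. The likeness genes are the 3 with the highest correlation. Promoters are from RefSeq on GRCm38.p6, a build other than that of the files. No window was given there for Trf, Slc40a1 or Hmox1.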

Additional observations from a re-analysis of the deposited data

How the results depend on the processing

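Of the 10 iron handling genes 0 passed under any alternative that kept all libraries, and 1 passed, Tfrc, when WT 3 was left out (0 to 1 over the libraries left out). The count over all genes, 235, became 1229 by DESeq2, 113 without scaling, 94 with the replicate block and 17 to 844 over the libraries left out. The count of called genes in the lists, 1, became 17 by DESeq2, 0 without scaling, 0 with the replicate block and 0 to 15 over the libraries left out. The log2 fold change of Hamp2 was 0.0207 by limma-voom and 0.11 with the block, and that of Hmox1 was 0.12 by limma-voom and 0.11 with the block. Over the libraries left out Hamp ran from -0.84 to 0.0920, Hamp and Hamp2 summed from -0.85 to 0.0565, Hamp2 from -1.01 to 0.98, Trf from -0.32 to 0.0136, Ftl1 from -0.27 to 0.12 and Hmox1 from -0.25 to 0.53. Other scalings and no filter turned the direction of 0 of the 10. Beside the values given with the results, why these moved was not tested. Libraries with the same replicate number did not deviate together (r = -0.117, -0.0623 and 0.119 for numbers 1, 2 and 3), so the numbers were not taken as pairs. Fits with a library left out had fewer libraries, so lost calls and the library cannot be told apart. The lowest estimated count of the 10 genes in a library was 232, and an effect of depth was not tested.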
